A study of Homo sapiens with 54 samples.

Results

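The histone genes of cluster 2 on human chromosome 1 were followed through RNA sequencing of HEK293T cells, a transformed human embryonic kidney line. The members were taken by gene symbol, by a rule that uses no measured value, although the cluster was proposed with results of these data known: the H2A genes H2AC18, H2AC19, H2AC20 and H2AC21, the H2B genes H2BC18 and H2BC21, the H3 genes H3C14 and H3C15, and the H4 genes H4C14 and H4C15. Of these 10 genes, 9 were among the 38137 genes listed and H4C14 was not analysed here. Only 5 members (H2AC18, H2BC18, H2BC21, H3C15 and H4C15) were among the 15378 genes that passed the filter on low counts, and these are the members that could be tested. Cells were transiently transfected with a plasmid for native RfxCas13d (WT) or for its high-fidelity variants N2V7 or N2V8, an RNA-guided nuclease that can cleave bystander RNAs after it has bound its target. For every effector there was a control crRNA without a target (NTG), crRNA-13 directed at C9ORF72 (S13), and further crRNAs called S3, S4 and S7. S3, S4, S7 and S13 are called targeting crRNAs below, although where S3, S4 and S7 bind is not in the labels. The rest were cells left untransfected (UT) and cells that received an antisense oligonucleotide, ASO2 or ASO4, which makes 18 groups of 3 samples and 54 libraries. All groups were the same wild-type line. The N2V8_S13 libraries carry N2V8 in their titles, by which they were grouped, but their treatment label reads N2V87, so which variant they hold rests on the titles. According to the labels, cells were collected at 48 h, whereas the study's account of its results states a later time.

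Histones H2A, H2B, H3 and H4 form the protein core of the nucleosome, and the genes of this cluster are replication-dependent, which means that their mRNA is made mainly while DNA is copied. Such mRNAs usually end in a short stem-loop in place of a poly(A) tail: the stem-loop binding protein SLBP holds that hairpin, the U7 small nuclear ribonucleoprotein directs the cut just after it, and the hairpin also serves in decay of the mRNA when DNA synthesis stops. Some of these genes also give longer, polyadenylated transcripts that run past the hairpin. The libraries were made from polyadenylated mRNA, and the table sums all transcripts of a gene, so tailed and tail-less forms of a member cannot be told apart in the values below.

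The hairpin is the element by which these mRNAs are processed, and it was found in every member, H4C14 included. The search looked on the sense strand, within 120 bases after the stop codon, for GG, any 4 bases, any 4-base loop and then the reverse complement of the first 6 bases. Over all coding genes of the GENCODE annotation, 168 of 19194 (0.875%) held such letters there, and 69 of those 168 were histone genes by symbol. The sequences are from GRCh38, 5′ to 3′, with the 16 bases of the hairpin in capitals.
H2AC18 (chr1:149842218-149842243, minus strand) and H2AC19 (chr1:149851569-149851594, plus strand): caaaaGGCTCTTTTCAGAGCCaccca
H2AC20 (chr1:149887386-149887411, plus strand): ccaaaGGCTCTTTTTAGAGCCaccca
H2AC21 (chr1:149887468-149887493, minus strand): ccaaaGGCTCTTTTAAGAGCCaccaa
H2BC18 (chr1:149811880-149811905, minus strand): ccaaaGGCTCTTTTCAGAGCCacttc
H2BC21 (chr1:149886183-149886208, minus strand): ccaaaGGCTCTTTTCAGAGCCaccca
H3C14 (chr1:149840687-149840712, minus strand) and H3C15 (chr1:149853100-149853125, plus strand): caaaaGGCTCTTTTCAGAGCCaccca
H4C14 (chr1:149833027-149833052, plus strand) and H4C15 (chr1:149860764-149860789, minus strand): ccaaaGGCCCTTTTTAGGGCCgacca
The hairpin letters were identical in H2AC18, H2AC19, H2BC18, H2BC21, H3C14 and H3C15, and differed in the loop in H2AC20 and H2AC21. H4C14 and H4C15 alone had a hairpin with another stem. The hairpin began 26 bases after the stop codon in H2AC20, 35 in H2AC21, H4C14 and H4C15, 39 in the H3 genes, 42 in H2BC18, 56 in H2BC21 and 67 in H2AC18 and H2AC19. The annotated end of the first GENCODE transcript lay 4 to 6 bases after the hairpin in every member other than H2BC21, whose transcript of 2224 bases ran 1729 bases beyond it. H4C14, H4C15 and H2BC18 also had spliced transcripts in that annotation, with 2 exons each.

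The members lie within 105277 bases (chromosome 1, 149782689 to 149887965), and part of the cluster is an inverted repeat. The stretch from H4C14 to H2AC18 (149832407 to 149843000) and that from H2AC19 to H4C15 (149850811 to 149861409), read in opposite directions, differed at 14 of about 10594 bases, an identity of 99.9%. In the first GENCODE transcript of each gene, H2AC18 differed from H2AC19 at 1 position and H3C14 from H3C15 at 4, all counted as edits over the whole transcript. H4C14 and H4C15 did not differ there. Words were also taken from these first transcripts alone, so the spliced transcripts of H4C15 and H2BC18 are not covered. Every 31-base word of H2AC18, H3C15 and H4C15 was also found in a transcript of another gene, and so was every 150-base word, the length of a read. A single read within these transcripts therefore cannot be assigned by its letters to 1 copy, and the levels of H2AC18, H3C15 and H4C15 can hold reads of their copies. H2BC21 shared 12.2% of its 31-base words and 0% of its 150-base words with other genes, and H2BC18 shared 86.4% and 6.7%. Among the 5 tested members, H2BC21 had the lowest share of 31-base words found elsewhere.

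The upstream sequences of the tested members are given for description, and their part in any difference between members was not tested. They are RefSeq promoters of GRCh38.p14, 250 bases before the start of the gene, with matches on either strand to the TATA box letters TATAAA, to the box CCAAT or to the octamer ATTTGCAT in capitals.
H2AC18 (chr1:149842751-149843000, minus strand): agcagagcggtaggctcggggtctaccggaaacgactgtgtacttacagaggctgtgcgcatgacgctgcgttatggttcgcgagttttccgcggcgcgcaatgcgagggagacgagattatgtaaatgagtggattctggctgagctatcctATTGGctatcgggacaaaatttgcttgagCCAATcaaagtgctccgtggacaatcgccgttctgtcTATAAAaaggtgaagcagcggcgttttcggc
H2BC21 (chr1:149886683-149886932, minus strand): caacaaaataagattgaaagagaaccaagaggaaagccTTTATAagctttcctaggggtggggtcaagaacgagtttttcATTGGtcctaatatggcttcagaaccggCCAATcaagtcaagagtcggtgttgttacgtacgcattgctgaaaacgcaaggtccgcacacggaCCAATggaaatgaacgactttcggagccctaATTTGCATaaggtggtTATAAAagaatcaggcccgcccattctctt
H3C15 (chr1:149852358-149852607, plus strand): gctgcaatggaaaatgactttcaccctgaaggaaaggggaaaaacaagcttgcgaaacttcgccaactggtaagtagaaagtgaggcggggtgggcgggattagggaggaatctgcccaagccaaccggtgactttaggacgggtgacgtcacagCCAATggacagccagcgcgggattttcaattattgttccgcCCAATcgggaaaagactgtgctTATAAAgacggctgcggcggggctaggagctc
H4C15 (chr1:149861160-149861409, minus strand): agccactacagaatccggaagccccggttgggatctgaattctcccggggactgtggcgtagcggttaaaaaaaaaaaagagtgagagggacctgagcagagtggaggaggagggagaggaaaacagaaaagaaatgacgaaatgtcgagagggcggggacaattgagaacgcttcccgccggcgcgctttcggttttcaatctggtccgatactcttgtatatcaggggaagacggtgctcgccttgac
H2BC18 (chr1:149812371-149812620, minus strand): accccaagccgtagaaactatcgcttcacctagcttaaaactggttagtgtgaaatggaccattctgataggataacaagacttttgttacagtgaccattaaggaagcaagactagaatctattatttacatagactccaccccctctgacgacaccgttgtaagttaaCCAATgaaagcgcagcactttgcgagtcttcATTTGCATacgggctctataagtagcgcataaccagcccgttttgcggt
In the RefSeq window of 300 bases, which runs 50 bases past the start, TATAAA was found in 7 of the 10 members against 11.5% of 35116 promoters, CCAAT in 8 against 34.6%, and ATTTGCAT in 4 against 1.77%. H4C14 and H4C15, whose promoters are identical, held none of the 3 motifs. H2BC18 and H2BC21 held ATTTGCAT 49 and 46 bases before the start. H2BC21 and H2AC20 are divergent, with 235 bases between their starts, and so share most of that window. Among 54 promoters of histone genes on chromosome 6, 36 held TATAAA, 47 held CCAAT and 23 held ATTTGCAT.

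Library totals ran from 9546826 to 15099153 estimated counts. C9orf72 is the gene that S13 and the oligonucleotides address. It was at 26.4 ± 0.445 CPM (counts relative to the TMM-scaled library total, mean ± SD, 3 libraries) in WT_S13 and at 29.3 ± 3.83 CPM in WT_NTG. It was called in no comparison of a targeting crRNA with NTG. Among differences of a crRNA effect between effectors, it was called for N2V8 minus WT with S4 and S7 alone. These were 0.38 ± 0.13 (log2, SE, edgeR adjusted p = 0.0288) and 0.37 ± 0.13 (adjusted p = 0.0382). With ASO4, C9orf72 was at 11.01 ± 0.770 CPM against 28.97 ± 1.31 CPM in UT. The table sums its transcript variants. All 8 genes listed as typical of HEK293T cells were detected in every library, and of 9 markers of other lineages INS was at 0 in all 54 libraries and 1, MYOD1, passed the filter, at up to 1.18 CPM. The summed level of those 9 markers was 0.441 to 1.35 CPM. Replicate 2 of N2V7_S4 stood apart, since residuals in its group had an SD of 0.509 (log2) against at most 0.313 in any other, so the differences of N2V7_S4 are given with and without it. The fit held 1 factor of unwanted variation, which took 21.9% of residual variance and had 95.6% of its squared weight in N2V7_S4. Part of the spread between the libraries of N2V7_S4 is therefore not in the SE and p-values given for that group with all libraries.

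The 4 members that could not be tested were at or near 0. H3C14 was listed at 0 in all 54 libraries. H2AC21 was at 0 in 32 libraries and reached 3.79 estimated counts, and H2AC20 was at 0 in 4 and reached 10.04. H2AC19 was at 0 in 52 libraries, and the exceptions were replicate 1 of WT_S13, with 91.64 estimated counts, and replicate 1 of WT_S7, with 80.76. In those same libraries H2AC18, its near-identical copy, was at 24.9 and 25.0 CPM, the lowest of its group each time. Summed over the pair, the WT_S13 difference from WT_NTG was 2.17 ± 0.13 on the log2 scale in place of 2.06 ± 0.14, and the WT_S7 difference was 2.23 ± 0.13 in place of 2.12 ± 0.14.

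**Figure D1:**
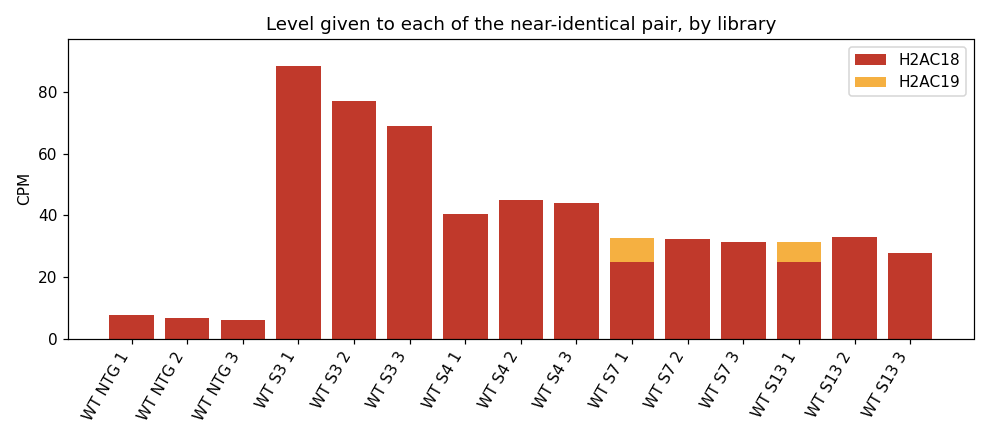
Level of H2AC18 (red) and H2AC19 (orange) in CPM (vertical axis, from 0), stacked, in each of the 15 libraries with the WT effector (horizontal axis, group and replicate). H2AC19 has a value in 2 libraries, WT S7 replicate 1 at 7.53 CPM and WT S13 replicate 1 at 6.54 CPM, and H2AC18 carries the rest.

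Levels of the tested members spanned a wide range over the 18 groups. The highest group mean was 11.4 times the lowest for H2AC18, 11.05 times for H2BC21, 12.4 times for H3C15 and 6.49 times for H4C15, but 3.06 times for H2BC18. For H2AC18 the order began with WT_S3 and WT_S4, apart from each other and from the next, followed by WT_S7 and WT_S13, which overlapped each other and stood above all others. H2BC21 had the order WT_S3, WT_S4, WT_S13, WT_S7, each apart from the next, and N2V8_S3 followed. H3C15 had WT_S3 and WT_S4 apart from each other and from the rest, in which all neighbours overlapped. H4C15 had another order, with WT_S13 first and WT_S3 and WT_S4 next, and those 3 overlapped as neighbours. For H2BC18, all 17 pairs of neighbours overlapped. Over the 18 group means of log2 CPM, H2AC18 and H2BC21 had a Pearson r of 0.962, and H2BC18 had r between 0.412 and 0.575 with the other members. These are descriptions, since the groups share controls, depth and library type.

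**Figure D2:**
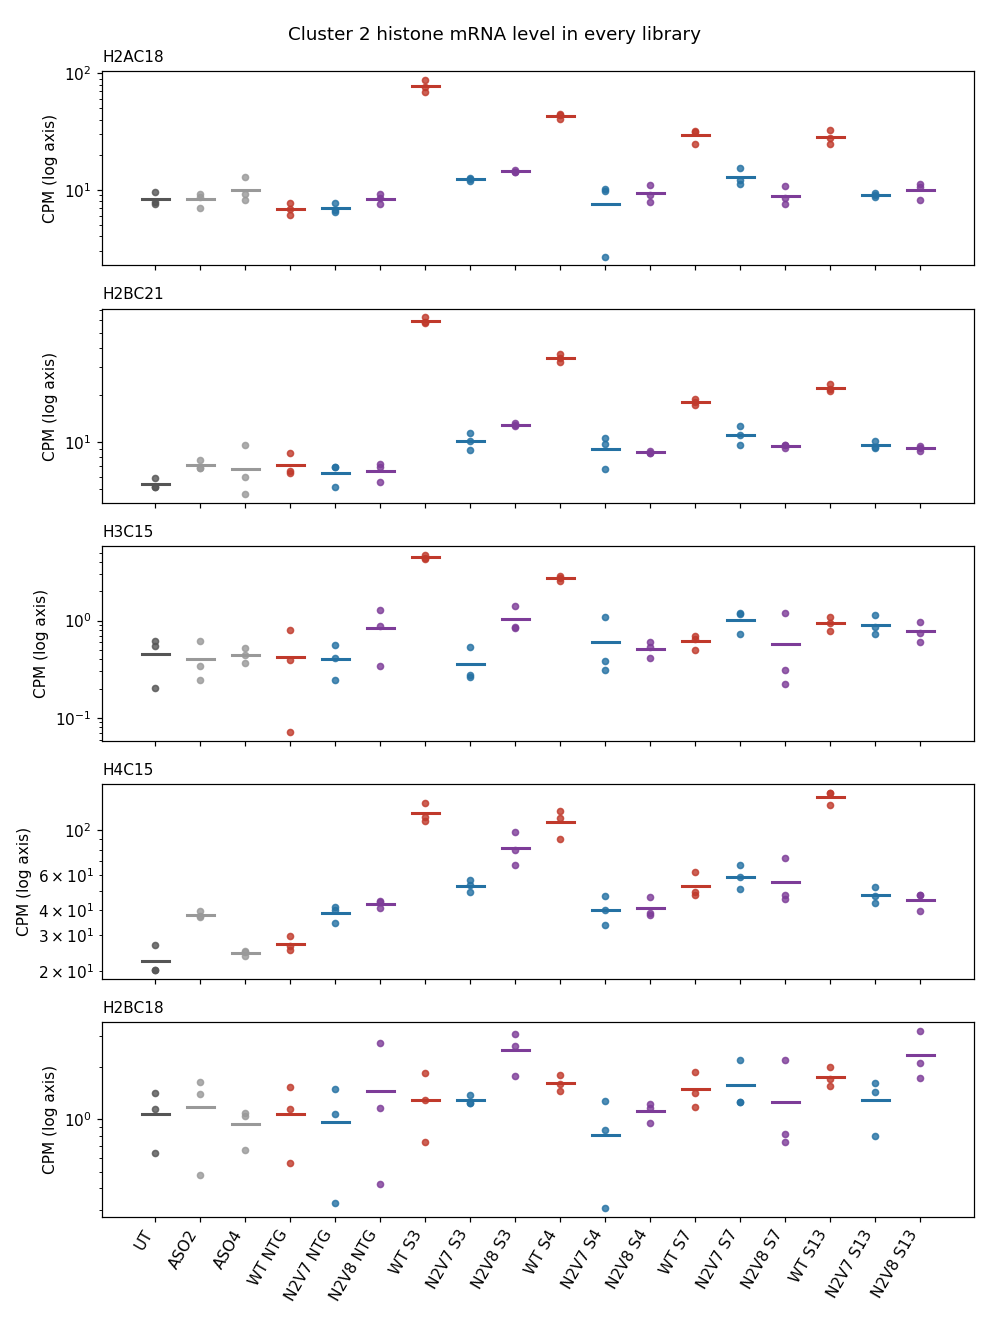
Level of the 5 tested members in CPM (vertical axes, log scale, TMM-scaled) for each of the 18 groups (horizontal axis). Each point is 1 library and each bar the mean of 3, in red for WT, blue for N2V7, purple for N2V8 and grey for UT and the oligonucleotides. The WT_S3 libraries of H2AC18 lie between 68.9 and 88.4 CPM, and the WT_NTG libraries between 6.05 and 7.68 CPM.

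The first comparison asked how the members differed between a targeting and the non-targeting crRNA in cells with native RfxCas13d. With S3, S4, S7 and S13 alike, H2AC18, H2BC21 and H4C15 were higher than with NTG, and H3C15 was higher with S3 and S4. A gene was called where its fold change passed the limit the study used and its adjusted p was under 0.05 (edgeR's quasi-likelihood test, with the adjustment made across all genes in the family of comparisons). With S3, 4 of 5 tested members were called, all higher, against 2.74% of all genes tested, and with S4 4 of 5 against 2.67%. With S7, 3 of 5 were called against 19.2%, and with S13 3 of 5 against 10.8%. The median difference of the 5 members was 3.07 with S3, 2.29 with S4, 0.96 with S7 and 1.65 with S13, while the median of all genes lay between −0.0049 and 0.0034 on the log2 scale. RNA per cell and the number of cells that carry it cannot be told apart in these bulk samples.

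H2AC18 encodes a core histone H2A. Its libraries were at 7.68, 6.83 and 6.05 CPM in WT_NTG and at 88.4, 77.1 and 68.9 CPM in WT_S3. In WT_S4 they were at 40.5, 45.04 and 43.9 CPM, in WT_S7 at 25.0, 32.2 and 31.5 CPM, and in WT_S13 at 24.9, 33.0 and 27.8 CPM. Every library with a targeting crRNA was above every NTG library. The rise was 11.4-fold with S3 (log2 3.51 ± 0.13, SE, adjusted p = 4.03e-28), 6.31-fold with S4 (2.66 ± 0.14, adjusted p = 6.36e-22), 4.33-fold with S7 (2.12 ± 0.14, adjusted p = 4.61e-17) and 4.16-fold with S13 (2.06 ± 0.14, adjusted p = 1.53e-16).

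H2BC21 encodes a core histone H2B, and its transcript is the longest annotated here. Its libraries were at 8.49, 6.28 and 6.48 CPM in WT_NTG and at 58.3, 62.4 and 57.3 CPM in WT_S3. They were at 32.5, 34.6 and 36.5 CPM in WT_S4, at 17.95, 18.7 and 17.2 CPM in WT_S7, and at 23.4, 21.7 and 21.2 CPM in WT_S13. No group with a targeting crRNA overlapped NTG. The rise was 8.38-fold with S3 (log2 3.07 ± 0.12, adjusted p = 3.82e-28), 4.88-fold with S4 (2.29 ± 0.12, adjusted p = 1.28e-21), 3.13-fold with S13 (1.65 ± 0.13, adjusted p = 8.55e-15) and 2.54-fold with S7 (1.34 ± 0.13, adjusted p = 1.18e-11). The other H2B gene, H2BC18, was at 1.08 ± 0.493 CPM in WT_NTG and between 1.29 and 1.75 CPM on average in the WT groups with a targeting crRNA. Its WT_S13 libraries, at 1.99, 1.55 and 1.71 CPM, lay just above the highest NTG library at 1.54 CPM. It was called in none of the 27 comparisons made, and its 95% intervals were wide. They ran from −0.68 to 1.14 with S3, from −0.31 to 1.46 with S4, from −0.44 to 1.36 with S7 and from −0.16 to 1.56 with S13.

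H3C15 encodes a core histone H3 and was the least abundant of the called members in counts. Its libraries were at 0.809, 0.397 and 0.0712 CPM in WT_NTG, the last of them from 1.04 estimated counts. In WT_S3 they were at 4.39, 4.70 and 4.34 CPM, in WT_S4 at 2.73, 2.86 and 2.58 CPM, in WT_S7 at 0.651, 0.687 and 0.499 CPM, and in WT_S13 at 0.782, 0.949 and 1.09 CPM. The S3 and S4 libraries were above every NTG library, and those of S7 and S13 overlapped them. The rise was 10.6-fold with S3 (log2 3.40 ± 0.42, adjusted p = 8.00e-09) and 6.44-fold with S4 (2.69 ± 0.44, adjusted p = 3.90e-06). With S13 the difference was 1.16 ± 0.49 (interval 0.17 to 2.14, adjusted p = 0.094) and with S7 it was 0.54 ± 0.54 (interval −0.54 to 1.63, adjusted p = 0.562). Without WT_NTG replicate 1 the S13 difference was 1.99 and was called (adjusted p = 0.0152, range over the alternatives 0.0152 to 0.094), and limma-trend called it too.

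H4C15 encodes histone H4, whose protein has the same sequence from most of its genes. Its libraries were at 25.3, 26.5 and 29.8 CPM in WT_NTG and at 152, 153 and 133 CPM in WT_S13. They were at 116, 111 and 136 CPM in WT_S3, at 90.1, 116 and 124 CPM in WT_S4, and at 47.9, 61.9 and 49.3 CPM in WT_S7. All 4 groups stood above NTG with no overlap. The rise was 5.36-fold with S13 (log2 2.42 ± 0.15, adjusted p = 1.14e-13), 4.46-fold with S3 (2.16 ± 0.16, adjusted p = 9.45e-13), 4.04-fold with S4 (2.01 ± 0.16, adjusted p = 5.70e-12) and 1.94-fold with S7 (0.96 ± 0.16, adjusted p = 4.16e-05).

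**Figure D3:**
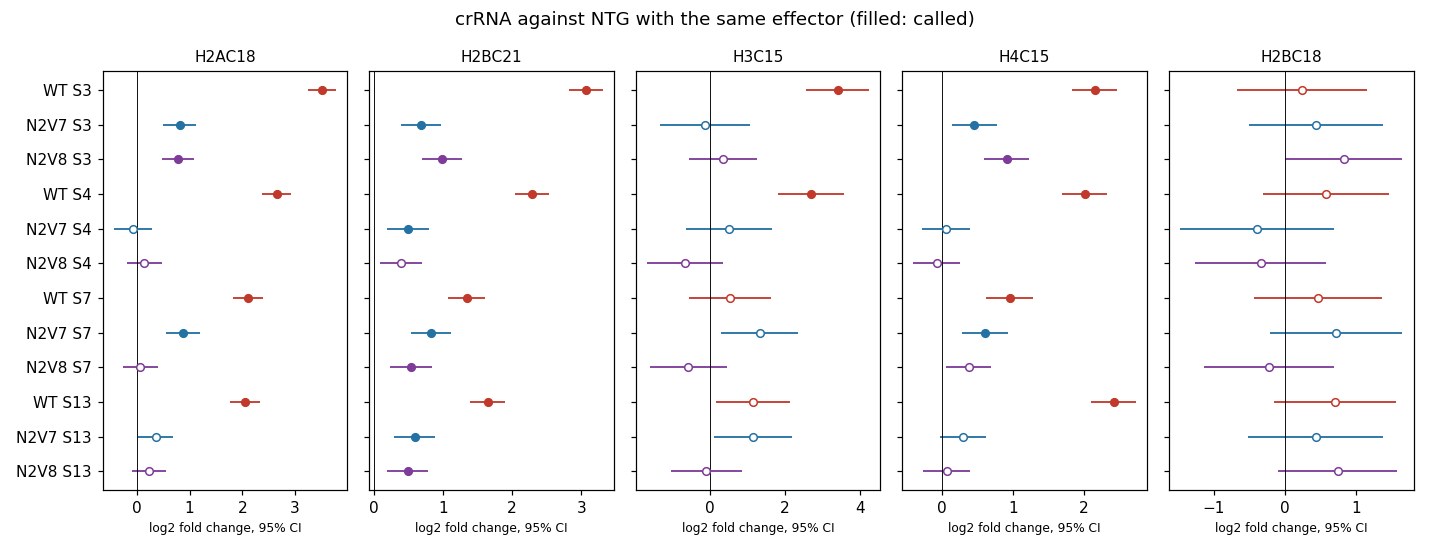
Log2 fold change of each tested member against NTG with the same effector (horizontal axes, which differ in range between panels, with 95% intervals) for the 12 crRNA comparisons (vertical axis). Filled points were called. H2AC18 lies at 3.51 with WT S3 and at 0.81 with N2V7 S3 and 0.77 with N2V8 S3, and H2BC18 has no filled point.

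Levels of other RNAs that lack a poly(A) tail are given beside these rises. Ribosomal RNA held 1.71% to 3.15% of counts in the WT_NTG libraries, 2.16% to 3.09% in WT_S3, 2.52% to 3.93% in WT_S4, 1.76% to 2.71% in WT_S7 and 1.79% to 2.30% in WT_S13. A list of 6 other RNAs without a poly(A) tail, such as RN7SK and RMRP, had 5 tested genes. Of these, 0 were called in any of these 4 WT comparisons, where 2.67% to 19.2% of all genes were called. Its median differences were 0.33 with S3, −0.00 with S4, −0.11 with S7 and 0.66 with S13. Its summed level was 52.9 to 62.8 CPM in WT_NTG and 44.1 to 75.2 CPM in WT_S3, and it reached 102 CPM in WT_S13. These ranges overlapped those of WT_NTG, and their part in the result was not tested. Markers of other lineages summed to 0.997 to 1.11 CPM in WT_NTG and 0.460 to 1.14 CPM in WT_S3.

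In cells with the high-fidelity variants fewer members were called with S3, S4 and S13 than in WT cells, and with S7 as many were called in N2V7 and fewer in N2V8. With S13, H2BC21 alone was called, in N2V7 (1 of 5 members, 11.4% of all genes) and in N2V8 (1 of 5, 2.44%). With S3, H2AC18, H2BC21 and H4C15 were called in N2V7 (3 of 5, 4.16%) and in N2V8 (3 of 5, 3.07%). With S4, H2BC21 was called in N2V7 (1 of 5, 24.2%, and 10.8% of all genes without N2V7_S4 replicate 2, or 366 genes in place of 3714 with only the compared libraries fitted) and no member was called in N2V8 (0 of 5, 6.15%), where H2BC21 had an unadjusted p of 0.0116 and was called by limma-trend (adjusted p = 0.0466). With S7, H2AC18, H2BC21 and H4C15 were called in N2V7 (3 of 5, 14.3%) and H2BC21 in N2V8 (1 of 5, 7.33%).

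H2BC21 was called in 7 of the 8 comparisons with a variant, by smaller steps than in WT cells. With S13 the N2V7 libraries were at 9.13, 9.26 and 10.1 CPM against 5.18, 6.89 and 6.86 CPM with NTG (log2 0.59 ± 0.15, adjusted p = 0.00247), and the N2V8 libraries were at 8.80, 9.20 and 9.43 CPM against 5.52, 7.20 and 6.90 CPM (0.49 ± 0.15, adjusted p = 0.0151). Neither pair of groups overlapped. Ribosomal RNA was also apart from the controls in these groups, at 4.17% to 4.42% of counts in N2V7_S13 against 1.76% to 3.08% in N2V7_NTG, and at 3.98% to 4.96% in N2V8_S13 against 1.81% to 3.52% in N2V8_NTG. Of the 5 tested RNAs without a poly(A) tail, 1 was called higher in N2V7_S13 (11.4% of all genes) and 1 in N2V7_S7 (14.3%). In the other variant comparisons with NTG 0 were called (edgeR, 2.44% to 24.2% of all genes), and the part of these RNAs in the result was not tested. The N2V8 calls with S13 and S7, but not that with S3, depended on the lowest control: without N2V8_NTG replicate 1 the S13 difference was 0.37 (adjusted p = 0.112, range over the alternatives 0.011 to 0.112) and the S7 difference, 0.54 ± 0.15 with all libraries (adjusted p = 0.00731), was 0.42 (adjusted p = 0.0748, range 0.00483 to 0.0748). With S3 the difference was 0.68 ± 0.15 in N2V7 and 0.98 ± 0.14 in N2V8, and with S7 it was 0.82 ± 0.15 in N2V7. In N2V7_S4 the libraries overlapped NTG at 10.5, 6.69 and 9.72 CPM (0.50 ± 0.15, adjusted p = 0.0152). That difference was 0.69 without N2V7_S4 replicate 2 (adjusted p = 0.00163) and was lost at 0.36 without N2V7_NTG replicate 1 (adjusted p = 0.142), at 0.36 without N2V7_S4 replicate 1 (0.154) and at 0.42 without N2V7_S4 replicate 3 (0.077), within a range over the alternatives of 0.00163 to 0.223.

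H2AC18 rose with S3 in both variants and with S7 in N2V7. Its N2V7_S3 libraries were at 12.7, 11.98 and 12.3 CPM against 7.72, 6.52 and 6.78 CPM with NTG (log2 0.81 ± 0.16, adjusted p = 9.91e-05), and its N2V8_S3 libraries were at 14.8, 14.4 and 14.4 CPM against 9.18, 7.59 and 8.55 CPM (0.77 ± 0.15, adjusted p = 0.000105). N2V7_S7 was at 12.1, 11.2 and 15.4 CPM (0.88 ± 0.16, adjusted p = 2.97e-05). With S13 the differences were 0.36 (interval 0.03 to 0.69, adjusted p = 0.126) in N2V7 and 0.24 (interval −0.08 to 0.56, adjusted p = 0.329) in N2V8, so neither passed the test. In N2V7_S4, replicate 2 was at 2.68 CPM, the lowest H2AC18 value of all libraries, beside 10.2 and 9.72 CPM. The difference of H2AC18 from NTG there turned from −0.07 ± 0.18 with all libraries to 0.50 ± 0.18 without that replicate (adjusted p = 0.0511), neither of which was called. H2BC18 likewise went from −0.39 ± 0.54 to 0.18 ± 0.54, while H3C15 was at 0.52 ± 0.57 and 0.90 ± 0.59 and H4C15 at 0.06 ± 0.17 and 0.06 ± 0.18, none of them called.

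H4C15 rose with S3 in N2V8, from 44.5, 43.9 and 41.3 CPM to 98.4, 67.0 and 79.8 CPM (log2 0.91 ± 0.15, adjusted p = 2.93e-05), and with S7 in N2V7, from 34.7, 41.5 and 40.0 CPM to 50.9, 67.0 and 58.5 CPM (0.60 ± 0.16, adjusted p = 0.00565). Both changes were free of overlap. In N2V7_S3 it was at 49.4, 53.2 and 56.7 CPM (0.46 ± 0.16, adjusted p = 0.041), a call that was lost without N2V7_NTG replicate 1 (0.37, adjusted p = 0.179), N2V7_NTG replicate 3 (0.48, 0.0678), N2V7_S3 replicate 1 (0.49, 0.0509), replicate 2 (0.44, 0.0927) or replicate 3 (0.41, 0.125), with a range over the alternatives of 3.60e-07 to 0.179. In N2V8_S7 the difference was 0.38 ± 0.16 (adjusted p = 0.102) and became a call at 0.50 without N2V8_S7 replicate 3 (adjusted p = 0.0364, range 1.68e-05 to 0.102). H3C15 was called with no variant. Its difference in N2V7_S7 was 1.33 ± 0.51 (adjusted p = 0.062), and 1.53 without N2V7_S7 replicate 1, where it was called (adjusted p = 0.0437). H2BC18 was called in N2V8 once N2V8_NTG replicate 2 was left out, at 1.59 with S13 (adjusted p = 0.0176) and at 1.67 with S3 (adjusted p = 0.0112), in place of 0.74 and 0.82 with all libraries.

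Whether a crRNA acted differently with a variant than with the native protein was tested as the difference of both effects. For S13, H4C15, H2AC18 and H2BC21 had smaller effects in N2V7 (3 of 5 members, 14.9% of all genes called) and in N2V8 (3 of 5, 18.3%) than in WT cells. The S13 effect on H4C15 was 2.12 ± 0.22 lower in N2V7 and 2.36 ± 0.22 lower in N2V8 on the log2 scale (adjusted p = 1.69e-08 and 1.83e-09), and that on H2AC18 was 1.70 ± 0.22 and 1.82 ± 0.22 lower. For H3C15 the difference was −0.00 ± 1.13 in N2V7 (interval −2.27 to 2.26), which leaves a wide range, and −1.24 ± 0.69 in N2V8 (adjusted p = 0.203), the latter called at −2.08 without WT_NTG replicate 1 (adjusted p = 0.0463). Between N2V8 and N2V7, 0 of 5 members were called (edgeR, 14.2% of all genes) and 0 had an unadjusted p under 0.05. The intervals were −0.58 to 0.34 for H2AC18, −0.53 to 0.32 for H2BC21 and −0.70 to 0.23 for H4C15. They were wide for H3C15 (−2.64 to 0.17) and H2BC18 (−0.97 to 1.58).

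For S3 and S4, all of H2AC18, H2BC21, H3C15 and H4C15 had smaller effects with the variants than with WT. That was 4 of 5 members for S3 in N2V7 (6.59% of all genes) and in N2V8 (5.85%), and 4 of 5 for S4 in N2V7 (19.9%, and 8.93% without N2V7_S4 replicate 2, or 563 genes in place of 3054 with only the compared libraries fitted) and in N2V8 (10.1%). The difference for H2AC18 with S3 was −2.70 ± 0.21 in N2V7 and −2.74 ± 0.21 in N2V8, and that for H3C15 was −3.52 ± 0.77 and −3.04 ± 0.64. The H3C15 difference for S4 in N2V7, −2.16 ± 0.75 (adjusted p = 0.03), was lost without N2V7_S4 replicate 2 (−1.78, adjusted p = 0.0986), WT_NTG replicate 2 (−2.14, 0.0524), WT_NTG replicate 3 (−1.64, 0.117), N2V7_NTG replicate 1 (−2.15, 0.0607) or N2V7_NTG replicate 2 (−1.89, 0.115), with a range over the alternatives of 0.00365 to 0.146. Without N2V7_S4 replicate 2 the S4 differences of the others in N2V7 were −2.15 for H2AC18, −1.95 for H4C15 and −1.60 for H2BC21, and all stayed called.

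For S7 fewer differences passed the test. H2AC18 had a smaller effect in N2V7 (−1.24 ± 0.22, 1 of 5 members, 25.8% of all genes), and H2AC18 (−2.05 ± 0.22) and H2BC21 (−0.81 ± 0.20) had smaller effects in N2V8 (2 of 5, 29.5%). For H2BC21 the N2V7 difference was −0.52 ± 0.20 (adjusted p = 0.052), and it was called without WT_NTG replicate 1 (−0.67, adjusted p = 0.0161), N2V7_NTG replicate 1 (−0.63, 0.0243) or N2V7_S7 replicate 3 (−0.63, 0.0254). For H4C15 the N2V8 difference was −0.58 ± 0.23 (adjusted p = 0.0682), and −0.84 without N2V8_S7 replicate 2 (adjusted p = 0.00448, range over the alternatives 2.41e-05 to 0.0682), and it was also called with no filter, with limma-trend and with DESeq2. H4C15 averaged 53.0 CPM in WT_S7, 58.8 in N2V7_S7 and 55.5 in N2V8_S7, but 27.2 in WT_NTG, 38.7 in N2V7_NTG and 43.2 in N2V8_NTG. For every crRNA, the H4C15 differences between a variant and WT therefore include these NTG levels. The H3C15 difference in N2V8 was −1.11 ± 0.74 (adjusted p = 0.317), and −2.16 without N2V8_S7 replicate 3 (adjusted p = 0.05).

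**Figure D4:**
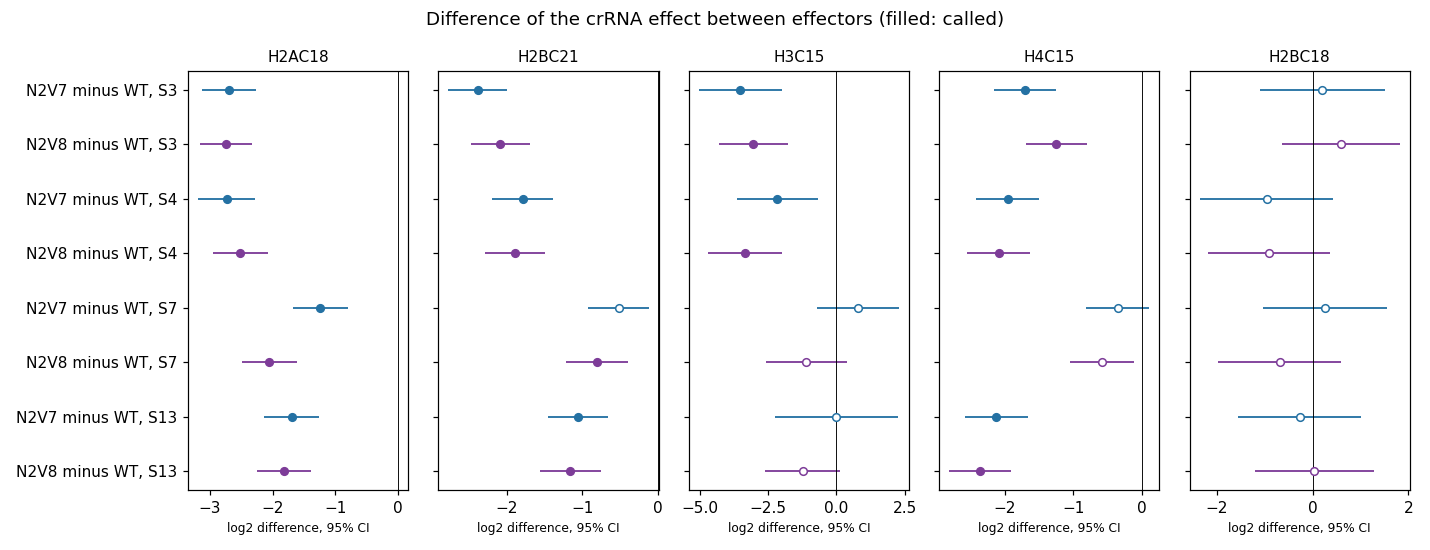
Difference of the crRNA effect between a variant and WT for each tested member (horizontal axes, log2, which differ in range between panels, with 95% intervals) for the 8 pairs of crRNA and variant (vertical axis). Filled points were called, and each of the 25 filled points lies below 0.

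The controls were compared with untransfected cells to see where each effector's baseline lay. H4C15 was at 20.2, 27.04 and 20.3 CPM in UT and at 25.3 to 29.8 CPM in WT_NTG, which overlapped. It was 1.70-fold higher in N2V7_NTG (log2 0.77 ± 0.18, adjusted p = 0.000804, 1 of 5 members, 20.8% of all genes) and 1.90-fold higher in N2V8_NTG (0.93 ± 0.18, adjusted p = 7.01e-05, 1 of 5, 29.9%). The NTG groups of the effectors were not tested against each other. In WT_NTG, H2BC21 was called (0.40 ± 0.16, adjusted p = 0.0456, 1 of 5, 5.10%), from 5.12, 5.13 and 5.85 CPM in UT. That call was lost without WT_NTG replicate 1 (0.26, adjusted p = 0.289), UT replicate 1 (0.37, 0.12) or UT replicate 2 (0.37, 0.135), with a range over the alternatives of 0.0287 to 0.289.

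With the oligonucleotides, H4C15 was at 37.4, 39.9 and 36.9 CPM with ASO2, 1.67-fold above UT (log2 0.74 ± 0.18, adjusted p = 0.00216, 1 of 5 members, 16.1% of all genes), and at 23.6, 25.1 and 24.8 CPM with ASO4. With ASO4, 0 of 5 members were called against UT (edgeR, 2.13% of all genes), and 0 had an unadjusted p under 0.05. H2BC21 became a call there without ASO4 replicate 3 (0.51, adjusted p = 0.0187) in place of 0.30. Between ASO4 and ASO2, H4C15 was lower with ASO4 (−0.63 ± 0.17, adjusted p = 0.00568, 1 of 5, 12.5%), with no overlap, and H2BC21 was called without ASO4 replicate 2 (−0.42, adjusted p = 0.0385) in place of −0.11. H2AC18 was at 8.31 ± 1.14 CPM with ASO2 and 8.32 ± 1.04 CPM in UT.

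The other replication-dependent histone genes were read beside the members. Of 55 listed genes on chromosome 6, which holds the main histone cluster, 24 were tested. In WT cells 9 were called with S3, 12 with S4, 11 with S7 and 14 with S13, all higher, with median differences of 1.17, 1.06, 1.40 and 1.34. Of all genes, 2.74%, 2.67%, 19.2% and 10.8% were called in these comparisons. H4C4, an H4 gene, was at 0 to 0.0712 CPM in WT_NTG and was called at 1.71 ± 0.405 CPM in WT_S3, 1.74 ± 0.288 CPM in WT_S4 and 1.252 ± 0.169 CPM in WT_S13, and no fold is given against so low a level. With S7, H2AC6 had the largest called difference (3.37 ± 0.36). H1-2, a linker histone gene, rose from 26.8 ± 2.90 to 143 ± 4.84 CPM (log2 2.42 ± 0.13, adjusted p = 6.64e-17), and H2BC12 rose from 50.2 ± 4.93 to 182 ± 15.4 CPM (1.86 ± 0.07, adjusted p = 3.82e-28). With S3 the differences were 1.03 ± 0.13 for H1-2 and 0.73 ± 0.07 for H2BC12, while H3C1 (3.78 ± 0.74), H2AC15 (2.75 ± 0.67) and H2AC17 (2.07 ± 0.35) had larger called differences, beside 2.16 to 3.51 for the called cluster 2 members. H1-2, H2BC12, H2AC6, H3C1, H2AC15 and H2AC17, and H4C4 outside S13, were chosen after their values were seen. In N2V7, 5 of the 24 were called with S13, 4 with S3, 3 with S4 and 6 with S7, where 11.4%, 4.16%, 24.2% and 14.3% of all genes were called. In N2V8, 3 were called with S13, 8 with S3, 1 with S4 and 3 with S7, beside 2.44%, 3.07%, 6.15% and 7.33% of all genes.

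**Figure D5:**
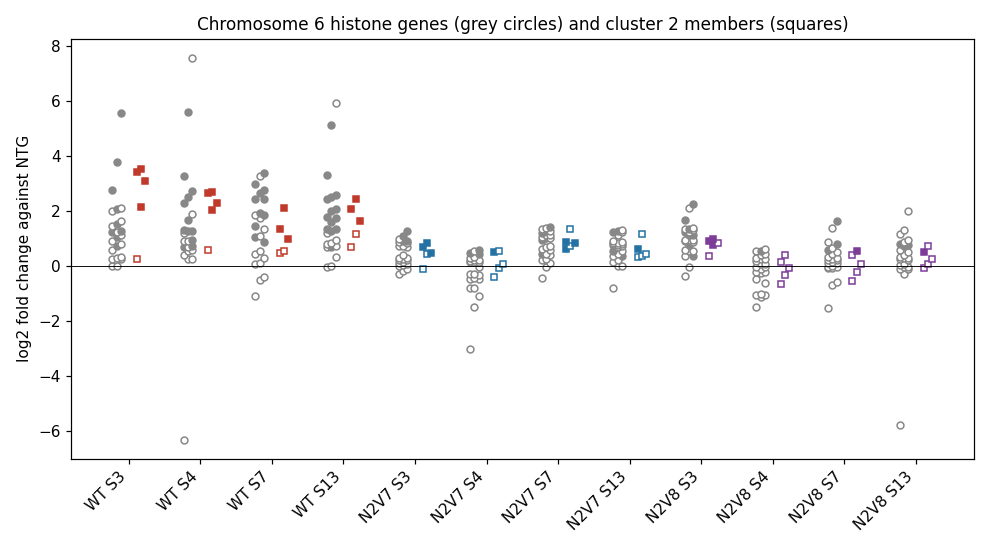
Log2 fold change against NTG (vertical axis) of the 24 tested chromosome 6 histone genes (grey circles) and the 5 tested cluster 2 members (squares) for each effector and crRNA (horizontal axis). Filled symbols were called. With WT S3 the called members lie between 2.16 and 3.51, and with N2V8 S4 no member is filled.

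Histone genes outside both clusters were few. Of 5 replication-dependent genes elsewhere 3 were tested, and with S13 in WT cells H2BU1 (2.11 ± 0.53) and H2AW (1.43 ± 0.23) were called. Of 11 tested replication-independent histone genes, whose mRNAs carry a poly(A) tail, 3 were called with S13 (10.8% of all genes), among them H2AJ (0.70 ± 0.12) and H1-10 (0.50 ± 0.05). Their median was 0.20 with S13 and 0.12 with S3. The factors that transcribe, process or degrade histone mRNA, 22 genes that include SLBP, were all tested. With S3 and S4 in WT cells 0 of 22 were called (edgeR), with medians of 0.03 and 0.02, where 2.74% and 2.67% of all genes were called. Among the factors called with S13, SRRT (0.51 ± 0.06) and LSM1 (0.40 ± 0.08) were higher and CTIF (−0.39 ± 0.10) was lower. At most 3 genes of a list are named for S13, so these need not be all. Among 52 tested genes of DNA replication and S phase, 0 were called with S3 (edgeR) and 1, lower, with S4, and the medians were −0.01 and −0.02. With S3 and S4, the counts of both lists lay too near the shares of all genes to set the lists apart from them. With S7, where 19.2% of all genes were called, 9 of the 52 were higher and 4 lower (median −0.02), and of the 22 factors 2 were higher and 2 lower (median 0.03). With S13 the list had 1 gene higher, CCNA2 (0.33 ± 0.06), and 3 lower (10.8% of all genes were called), among them E2F2 (−0.43 ± 0.08) and LIG1 (−0.43 ± 0.10), with a median of −0.04. Of the HEK293T list, VIM was lower with S13 (−0.34 ± 0.05).

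The neighbours of the cluster were read beside the members. Of the non-histone genes within 250 kb, 9 were tested: BOLA1, LINC00869, LOC644634, MTMR11, NBPF19, OTUD7B, SF3B4, SV2A and VPS45. In WT cells, BOLA1 (0.34 ± 0.10, adjusted p = 0.0111) was called with S3 (2.74% of all genes). No neighbour was called with S4 (2.67%), S7 (19.2%) or S13 (10.8%). With 9 genes, such counts cannot be set apart from these shares. The medians of the 9 were −0.13, 0.03, 0.13 and 0.00, and with S3 the 9 ran from −1.61 to 0.34. With N2V7 and S13 (11.4% of all genes), LINC00869 (0.50 ± 0.12) and BOLA1 (0.38 ± 0.10) were higher and NBPF19 (−0.71 ± 0.20) was lower. In N2V7_S7, 2 were higher and 1 lower (14.3%), in N2V7_S4 1 was lower (24.2%), and in N2V8_S4 1 was higher (6.15%). The other variant comparisons with NTG had 0 called (edgeR).

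The 10 genes whose pattern over the 18 group means was most like the mean of the 5 tested members held no gene of the chromosome 6 histone list. Only genes above a limit on level were candidates, so the absence of list genes below it was fixed in advance. How many of the list passed that limit was not counted. Among 11839 genes whose log2 CPM averaged 2 or more, those with a high Pearson r included SDHAF1 (0.807), MHENCR (0.795), GABPB1-AS1 (0.786) and FAM226B (0.765). LOC107985115 (0.76), POP7 (0.758), TRAPPC5 (0.753), ZEB1-AS1 (0.747) and KTI12 (0.741) were also among the 10. The 18 means share library type and controls, so these values are a description.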

How the data were processed

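RNA was sequenced from 54 libraries of HEK293T cells, 3 per group, with groups and replicates taken from the labels. The authors selected poly(A) RNA with a stranded kit, quantified reads with Salmon 1.5.2 (submitters' processing notes) against spliced NCBI transcripts with a genome decoy, and deposited estimated counts per gene (lengthScaledTPM), in which reads that match several genes are kept and shared out. Library totals ran from 9546826 to 15099153 and genes below the filter held 0.0723% of counts.

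Here counts were rounded, filtered (filterByExpr), scaled by TMM and fitted over all 54 libraries with edgeR 4.0.16 (R 4.3.3, quasi-likelihood, robust) and 1 factor of unwanted variation from residuals (RUVr), the study having used limma-trend with such a factor. Log2 CPM used a prior count of 2. A call needed a fold change over 1.25 and a Benjamini-Hochberg adjusted p under 0.05, adjusted over all genes and comparisons within each of 7 families (27 comparisons), and errors of log2 values are SE with 95% intervals. The test was checked on simulated counts. The members and gene lists were chosen with earlier results of these data known. Named beside the members were the 10 genes most like their pattern, up to 3 called genes per list with the largest S13 change in WT, tested neighbours within 250 kb, and C9orf72. The alternatives were limma-trend (limma 3.58.1), DESeq2 1.42.0, DESeq2 size factors, no filter, no factor, only the compared libraries, a replicate block, adjustment over all comparisons, adjusted p under 0.01, near-identical pairs summed, and each library left out. Sequences were compared with edlib 1.3.9.post1 in Python 3.11.15. The labels call the 3 samples of a group separate samples. The p-values measure only the spread between samples within groups, estimated over all 54 libraries together after the factor was taken out. The deposited mark of the genes the authors retained was not used in the tests. Some genes that the naming rule selects are not reported here.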

Additional observations from a re-analysis of the deposited data

Results flagged for a closer look

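A test of the difference itself set 25 crRNA effects in the variants apart from those in WT cells, each smaller with the variant, on the log2 scale. All 5 tested members were compared for each pair of crRNA and variant. Of all genes, 5.85% (S3 in N2V8) to 29.5% (S7 in N2V8) were called in these comparisons. For S13 the differences in N2V7 were −2.12 for H4C15, −1.70 for H2AC18 and −1.05 for H2BC21, and in N2V8 they were −2.36, −1.82 and −1.16. For S3 they were −3.52 for H3C15, −1.70 for H4C15, −2.70 for H2AC18 and −2.38 for H2BC21 in N2V7, and −3.04, −1.24, −2.74 and −2.08 in N2V8. For S4 they were −2.16, −1.96, −2.73 and −1.79 in N2V7, in the same order of genes, and −3.34, −2.09, −2.51 and −1.89 in N2V8. Without N2V7_S4 replicate 2 the N2V7 values were −1.78 for H3C15, which was no longer called, −1.95 for H4C15, −2.15 for H2AC18 and −1.60 for H2BC21. For S7 they were −1.24 for H2AC18 in N2V7 (1 of 5 members, 25.8% of all genes). In N2V8 they were −2.05 for H2AC18 and −0.81 for H2BC21 (2 of 5, 29.5%). The comparisons of a crRNA share the WT libraries, so the N2V7 and N2V8 values are not independent.

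Members too low to test were searched for single libraries above 3 counts, the limit that a count of 0 allows, and above every UT and NTG library. Only libraries outside UT and NTG were searched, so a hit could arise nowhere else and its place is no result. H2AC19 had 80.8 estimated counts in WT_S7 replicate 1 and 91.6 in WT_S13 replicate 1, and was at 0 in the other libraries. In each of these libraries H2AC18, its near-identical copy, was the lowest of its group. H2AC21 had 3.8 in N2V7_S7 replicate 2, 3.1 in N2V8_S7 replicate 2 and 3.1 in N2V7_S13 replicate 2, beside 2.85 in WT_NTG replicate 1. H2AC20 was highest in a control, at 10.04 in N2V8_NTG replicate 2.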

How the results depend on the processing

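Counts of members called were computed in 17 sets of comparisons. They stayed within 1.5 times under DESeq2, DESeq2 size factors and the replicate block in all 17, and no called change of a member turned its direction under the alternatives run. Of the changes not called, H2AC18 and H2BC18 in N2V7_S4 against NTG turned from −0.07 to 0.50 and from −0.39 to 0.18 without N2V7_S4 replicate 2, and turns of other changes that were not called were not counted. Under the replicate block, all 57 called changes kept their call, and no other change became a call. Replicate numbers did not pair the libraries: the residuals of same-numbered libraries correlated at 0.00112 on average (−0.121 to 0.11), and 20 of 54 libraries correlated best with their own number. The single call of WT_NTG against UT (1 member) became 0 with no factor of unwanted variation, with no filter, with adjustment over all 27 comparisons, at an adjusted p under 0.01 and with only the compared libraries. The call of N2V8_S13 (1) became 0 at an adjusted p under 0.01. ASO2 against UT had 2 members in place of 1 with limma-trend. With near-identical pairs summed, the S3, S4 and S7 differences between N2V7 and WT had 14 calls in place of 9, since both members of a pair then take the call of their sum. The level of H2AC18 in N2V7_S3 (CPM) was 13.01 with library totals alone. H4C15 was also called for S7 in N2V7 minus WT (adjusted p = 0.0299) and N2V8_S7 with no filter.

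With 1 library left out, members called ran from 3 to 4 for WT_S13, 1 to 1 for N2V7_S13, 0 to 2 for N2V8_S13, 11 to 11 for S3, S4 and S7 in WT, 5 to 8 in N2V7 and 3 to 5 in N2V8. They ran from 3 to 3 and 3 to 4 for the S13 differences of N2V7 and N2V8 from WT, 0 to 0 between N2V8 and N2V7, and 8 to 10 and 10 to 11 for the S3, S4 and S7 differences. They ran from 0 to 1 for WT_NTG, 1 to 1 for N2V7_NTG and N2V8_NTG, 1 to 1 for ASO2 and 0 to 1 for ASO4 against UT, and 1 to 2 for ASO4 against ASO2. Where no value beside a result shows it, the cause of such a change was not tested. Among the tested members, depth limits H3C15 and H2BC18 most, with medians of 7.22 and 15.29 estimated counts per library.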
